A study of Mus musculus with 3 samples.

Results

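The clustered histone genes were taken as every gene whose symbol in the feature lists starts with Hist1h, Hist2h, Hist3h or Hist4h. This rule gave 70 of 51912 features: 6 named for the linker histone H1, 20 for H2A, 19 for H2B, 12 for H3 and 13 for H4. By symbol, 56 belong to the Hist1h group, 10 to Hist2h, 3 to Hist3h and 1 to Hist4h. In the GENCODE M21 annotation (GRCm38) 54 lie on chromosome 13 between 21715763 and 51203065, 10 on chromosome 3 between 96219865 and 96270132, 3 on chromosome 11 and 1 on chromosome 6, and 2 (Hist1h2bm and Hist1h2bh) were not matched. The rule reads only the symbol, so it also took Hist1h2aj, Hist1h2al and Hist3h2bb-ps, which M21 annotates as pseudogenes. Hist1h2al is the member that ends at 51203065. Of the other members placed on chromosome 13 the last, Hist1h2aa, ends at 23934851.

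The data are 10x Genomics 3′ single-cell RNA counts from mouse intestinal crypt epithelium, in 2 Arid3a cKO libraries and 1 WT library. The cKO animals carried VillinCreERT2 with Arid3a fl/fl, and WT carried VillinCreERT2 without the floxed allele. All received tamoxifen at 8 to 10 weeks of age and were harvested 1 month after the first injection. Villin drives the Cre in the intestinal epithelium, so deletion of Arid3a, which encodes an AT-rich DNA-binding transcription factor, was aimed at epithelial cells of every type. Live cells were sorted as DAPI-negative, Epcam-positive, CD45-negative and CD31-negative. Whether a library came from 1 animal or from several is not given in the sources used here. Every p-value printed below comes from a fit with library as a block, which removes the level of each library. It measures how a difference between phases or classes varies over these libraries only.

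Cells with at least 1000 genes and at most 15% mitochondrial UMIs were kept. Arid3a cKO 1 gave 2134 such cells, Arid3a cKO 2 gave 1550 and WT gave 1910. A UMI counts 1 captured RNA molecule. The kept cells held 58169310 to 70922480 UMIs per library, and the 3 libraries shared 11 to 18 barcodes per pair, of which at most 2 were kept cells. Arid3a itself was at 0.592 UMIs per 1000000 UMIs (CPM; 95% Poisson interval 0.427 to 0.8, 42 UMIs) in Arid3a cKO 1 and 0.894 (0.668 to 1.17, 52 UMIs) in Arid3a cKO 2, against 2.57 (2.19 to 3, 161 UMIs) in WT. Which exons the floxed allele removes is not given in the sources used here, so 3′ reads outside them may still be counted. Sums of 7 T cell markers ranged from 1.47 to 18.4 CPM over the libraries in all kept cells and from 0.121 to 0.307 CPM in the stem and transit-amplifying cells on which most results below rest. In those cells 3 of the 5 myeloid markers were at 0 UMIs, and the 5 mesenchymal markers summed to 11.9 CPM in Arid3a cKO 2 against 0.0804 in Arid3a cKO 1 and 0 in WT. Their part in the results was not tested.

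Core histones H2A, H2B, H3 and H4 form the nucleosome around which DNA is wrapped, and H1 binds the linker DNA between nucleosomes. The clustered genes are known as replication-dependent: most are transcribed in S phase under the coactivator NPAT, and their mRNAs end in a conserved stem-loop, bound by SLBP, in place of a poly(A) tail. Some clustered genes also give polyadenylated transcripts, known from differentiated cells. In the intestinal crypt, Lgr5-positive stem cells (ISC) and transit-amplifying (TA) progenitors divide, whereas mature enterocytes and mature secretory cells have left the cycle. The 3′ assay primes on runs of A, so how a molecule of a gene without a poly(A) tail came to be counted was not tested.

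The stem-loop is shown for 9 members because it is the feature that sets this kind of mRNA apart and because the H4 genes carry stems of their own, while H1, H2A, H2B and H3 share theirs. The sequences were read from GENCODE M21 transcripts (GRCm38), with the stem and loop in capitals.
Hist1h1e: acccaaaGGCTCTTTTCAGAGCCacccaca
Hist1h1c: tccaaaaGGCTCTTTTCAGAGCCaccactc
Hist1h1d: ctcaaacGGCTCTTTTCAGAGCCacccaca
Hist1h2ap: aaaaaaaGGCTCTTTTCAGAGCCatc
Hist1h2ab: aaacaaaGGCTCTTTTCAGAGCCacccaca
Hist3h2a: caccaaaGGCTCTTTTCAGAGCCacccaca
Hist1h3e: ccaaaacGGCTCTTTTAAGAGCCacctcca
Hist1h4d: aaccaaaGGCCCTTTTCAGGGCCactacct
Hist1h4b: tacaaaaGGTCCTTTTCAGGACCactcact

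A stem of 6 bases starting with GG, a loop of TTTC or TTTA and the exact reverse complement of the stem was found in annotated transcripts of 39 of the 68 members that M21 holds, and in 18 of 55382 other genes (0.0325%). The word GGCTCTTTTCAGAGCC stood in 24 members: 3 of H1, 10 of H2A, 6 of H2B and 5 of H3. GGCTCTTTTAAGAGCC, which has A in the loop, stood in 1 member of H1, 2 of H2B and 3 of H3. The H4 genes held other stems: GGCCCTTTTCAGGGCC in 7 and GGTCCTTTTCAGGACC in 2 of 13. In 20 members the annotated transcript stopped within 100 bases after the stem-loop, as in Hist1h2ap, where 3 bases follow it, and Hist1h2ab, where 11 do. In 19 it ran further, by 1153 bases in Hist1h1e, 840 in Hist1h1c, 770 in Hist1h4d, 369 in Hist1h3e and 4884 in Hist1h1d, and 9 of these 19 held AATAAA or ATTAAA in their last 50 bases. No such word was found in 29 members, Hist1h2bc (chr13:23684199-23692908) and Hist1h1b (chr13:21779883-21780625) among them. Some of the 29 have short annotated transcripts, such as Hist1h2bn at 381 bases, Hist1h2ak at 393 and Hist1h4k at 312. In Hist1h4d the stem-loop starts at base 353. A transcript annotated without its end cannot show the word, so the 29 are not shown to lack it in their mRNA. The median level was 3.76 CPM over the 20 members annotated to stop at the stem-loop and 8.61 CPM over the 19 annotated to run past it. It was 2.05 CPM over the 29 in which the word was not found. Each set also held members at 0 UMIs.

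The assay counts 3′ ends, so CPM values were not divided by transcript length. The longest run of A in annotated transcripts was 12 bases in Hist1h2ap, 8 in Hist1h2bc, 6 in Hist1h1b and 2 in Hist1h2bn. Whether genes are captured equally was not tested. The order of genes and the shares of families therefore describe captured UMIs and not the amount of mRNA. Many members have nearly the same annotated ends: 37 of 68 shared at least 50% of the 50-base words in the last 300 bases of their transcripts with another gene, and 17 shared none. In the short annotations these 300 bases are most of the transcript. All 6 members at 0 UMIs in every library (Hist2h2aa2, Hist2h3c1, Hist1h2aj, Hist1h2bq, Hist1h2br and Hist1h2ba) were among the 37. Counts of such genes are uncertain, since reads could be split or dropped between copies. Why the 6 were at 0 UMIs was not tested, and Hist1h2aj among them is annotated as a pseudogene. Hist1h3e shared all of its tail words with Hist1h3f. Hist1h1e (chr13:23620629-23622558) overlaps Hist1h2be on the same strand and shared all of its tail words with other genes, Hist1h2be among them. Hist1h2ap shared 100% and Hist1h2ab 70.1%. The levels, ranks and changes given below for these genes are uncertain in the same way. Hist1h2bc shared 3.19%, and Hist1h1b, Hist1h4d, Hist1h1c and Hist1h4i shared none.

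All 70 members together made up 1303 CPM in Arid3a cKO 1 and 1439 CPM in Arid3a cKO 2, against 1432 CPM in WT (mean 1391 ± 76.5, SD, n = 3 libraries). Values given as 3 numbers follow this order of the libraries from here on. A few genes carried most of it. The 5 highest genes held 63.9, 60.3 and 60.5% of the members' UMIs in the 3 libraries, and the 25 highest held 94.1, 92.6 and 92.5%. Of the 70, 4 averaged at least 100 CPM, 13 at least 20 CPM and 38 under 5 CPM. The 6 at 0 UMIs lie under a floor of 3 counts, which is 0.0423, 0.0516 and 0.0479 CPM. These floors and all Poisson intervals cover counting error only.

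**Figure D1:**
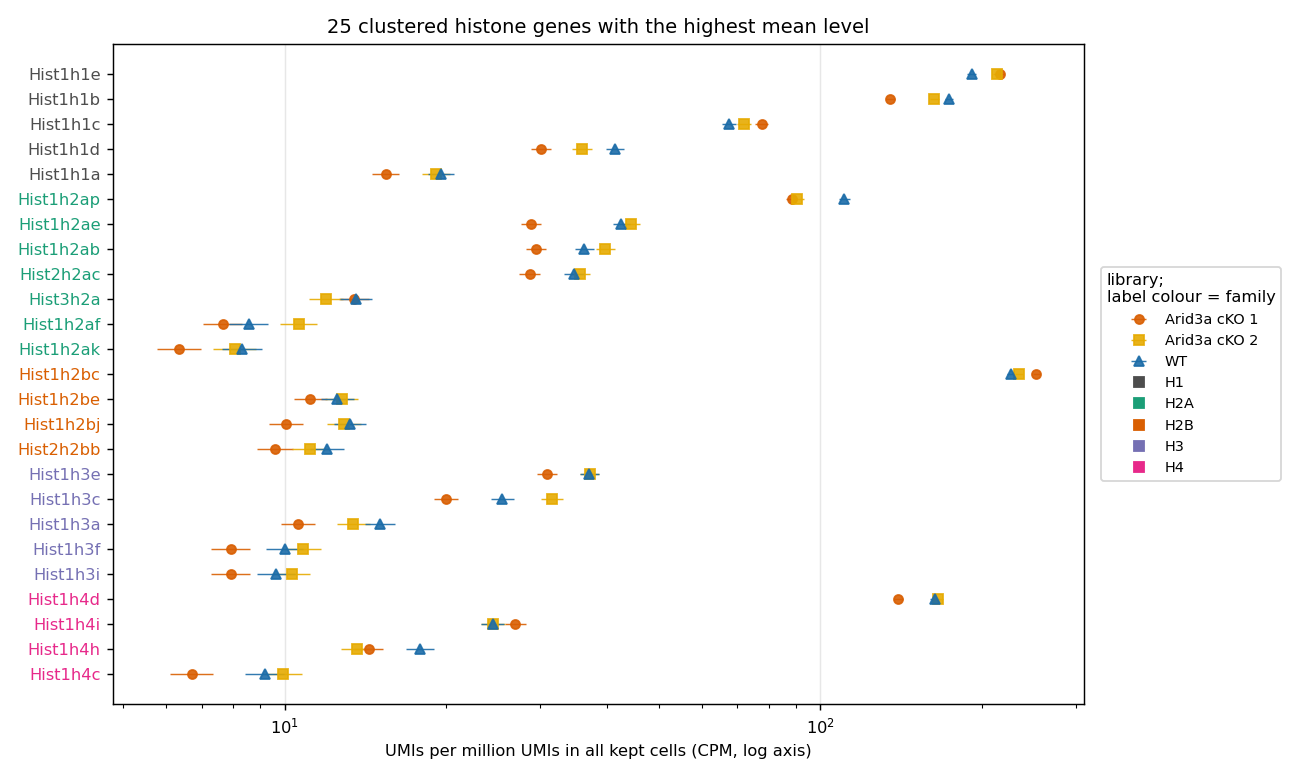
Level of the 25 clustered histone genes with the highest mean, grouped by family, in UMIs per 1000000 UMIs of all kept cells (log axis). Each point is 1 library and each bar its 95% Poisson interval; Hist1h2bc lies at 226.5 to 253 CPM and the last of the 25, Hist1h2ak, averages 7.58 CPM.

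The H1 genes held 34.5 to 36.4% of the members' UMIs. Hist1h1e, a somatic H1 variant, was at 216.5, 213.6 and 191.4 CPM. Hist1h1b, the H1.5 variant, was at 135.1, 163.1 and 173.8 CPM, and Hist1h1c, the H1.2 variant, at 77.65, 71.93 and 67.5 CPM. Hist1h1e was above Hist1h1b and Hist1h1b above Hist1h1c in every library. Hist1h1d averaged 35.8 CPM and Hist1h1a 18 CPM.

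The H2A genes held 17.1 to 19.6%, led by Hist1h2ap at 88.36, 90.6 and 110.7 CPM, Hist1h2ae at 28.81, 44.23 and 42.52, Hist1h2ab at 29.41, 39.64 and 36.26 and Hist2h2ac at 28.64, 35.59 and 34.64. The last 3 genes overlap in their ranges, so their order is not resolved. The H2B genes held 21.3 to 24%, and most of that was 1 gene: Hist1h2bc, the highest of all 70, was at 253, 235 and 226.5 CPM, above every value of Hist1h1e. The next H2B genes, Hist1h2be, Hist1h2bj and Hist2h2bb, averaged 12.2, 12.1 and 10.9 CPM. The H3 genes held 6.86 to 8.27%, with Hist1h3e at 30.92, 37.08 and 37.05 CPM and Hist1h3c at 20.01, 31.58 and 25.5. The H4 genes held 15.6 to 16.6%, most of it Hist1h4d at 139.6, 165.6 and 163.3 CPM, whose range overlaps that of Hist1h1b. Hist1h4i followed at 26.94, 24.46 and 24.47 CPM.

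Clusters were named from fixed markers with the members left out of the clustering, and classes are written with "-like". ISC- and TA-like cells thinned to 24000 UMIs each were then assigned to G1, S or G2/M from gene lists that hold no member. Arid3a cKO 1 had 225, 108 and 190 cells in G1, S and G2/M, Arid3a cKO 2 had 174, 101 and 148, and WT had 152, 140 and 181. Cells that do not cycle fall in G1 by this method, and free RNA can enter the calls, which was not tested. Whether cells late in S phase were called G2/M was not tested either. The comparison of phases asks how the level of each member differs between them. It pools ISC- and TA-like cells without a term for class. Mean levels of all members were 1061 CPM in G1 and 1014 in ISC-like cells, and 4385 in G2/M and 4375 in TA-like cells. Differences between phases therefore cannot be told apart from differences between ISC- and TA-like cells here. Summed over all members the level rose from 948.8, 1064 and 1170 CPM in G1 to 2409, 3267 and 2740 CPM in S and 4337, 4220 and 4597 CPM in G2/M. The 3 phases did not overlap. Within a library S was 2.65 ± 0.377 times G1, and G2/M was 1.59 ± 0.265 times S (SD, n = 3 libraries). Since UMIs were summed over cells, more cells with a transcript and more transcript per cell cannot be told apart here.

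**Figure D2:**
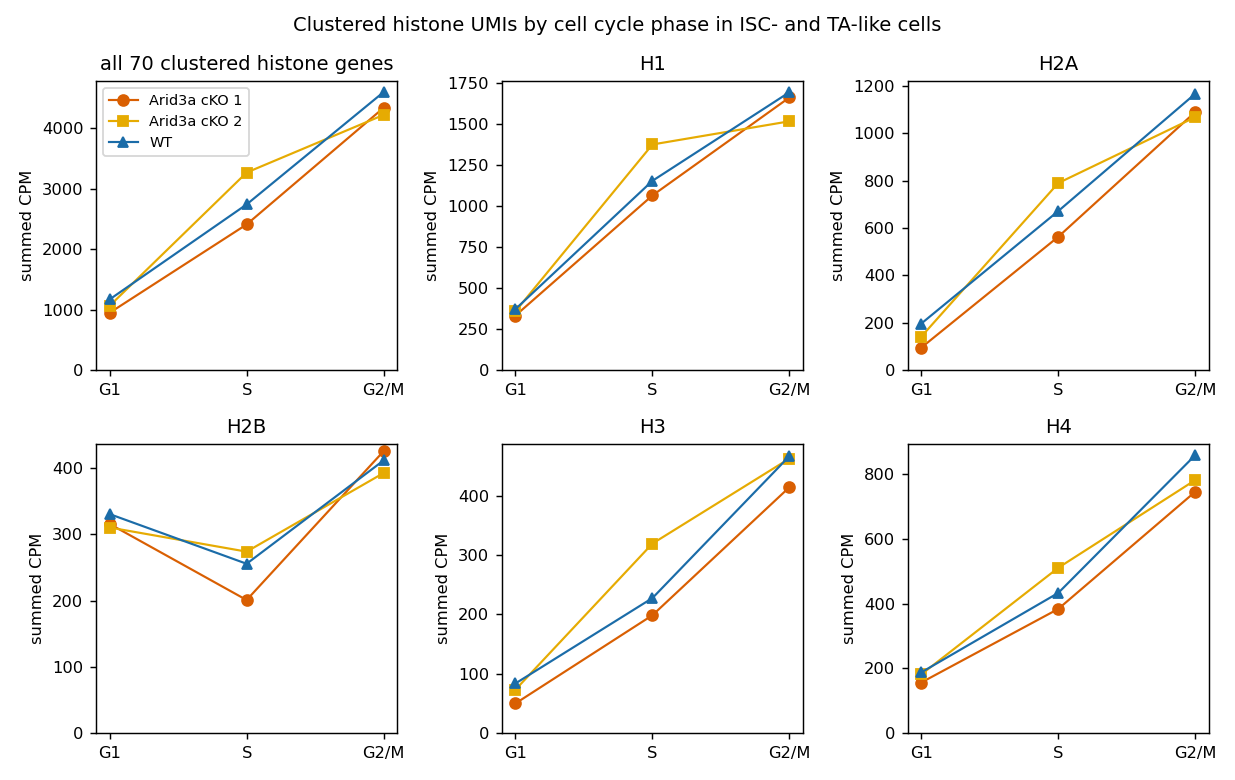
Summed CPM of all 70 clustered histone genes and of each family in G1, S and G2/M cells of the ISC- and TA-like classes; each line is 1 library. Every family is highest in G2/M, and H2B is lower in S than in G1 in all 3 libraries (0.636, 0.882 and 0.773 of G1).

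In S against G1, 54 of 70 members had enough UMIs to be tested, and the 16 left out averaged at most 0.879 CPM. Of the 54, 44 were higher in S, against 12.9% of all 11897 genes tested (edgeR quasi-likelihood test with library as a block, Benjamini-Hochberg adjusted p under 0.05), 2 were lower, against 11.1%, and 8 were not called. The median log2 fold change was 1.63 over the tested members and -0.01 over all genes. Higher in S were 4 of 5 H1, 11 of 14 H2A, 11 of 15 H2B, 9 of 9 H3 and 9 of 11 H4 genes.

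Hist1h1b was among the strongest rises, from 28.85, 45.58 and 97.42 CPM in G1 to 443.3, 596.9 and 513.4 in S (log2 fold change 3.26 ± 0.21, SE, edgeR adjusted p = 2.609e-08). Its S values lie well above its G1 values in every library. Hist1h2af rose by 3.26, Hist1h2an by 3.10, Hist1h2ab by 3.0 and Hist1h3b by 2.96 on the log2 scale. Hist1h1b and Hist1h2af differ by less than their standard errors of 0.21 and 0.22, so which of them rose more is not resolved. Hist1h2ap rose by 2.58, Hist1h4d by 1.79 (80.78, 94.28 and 93.45 CPM in G1, 271.7, 369.2 and 302.2 in S) and Hist1h1e by 1.25. Hist1h4i rose only from 40.28, 37.06 and 35.48 CPM to 48.32, 47.15 and 44.26 (0.30 ± 0.08, edgeR adjusted p = 0.0108). Hist1h1c gave 94.05, 85.19 and 68.98 CPM in G1 and 80.87, 88.33 and 90.04 in S, values that overlap (0.06 ± 0.09, edgeR adjusted p = 0.691). Its H1 neighbours thus differ: Hist1h1a rose by 2.46 and Hist1h1d by 1.94.

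The 2 genes that fell were Hist1h2bc and Hist3h2a. Hist1h2bc went from 281.2, 262.8 and 276.8 CPM in G1 to 67.55, 58.89 and 90.04 in S and 152.7, 101.3 and 97.01 in G2/M. It fell by 1.93 ± 0.14 on the log2 scale from G1 to S (edgeR adjusted p = 4.806e-08) and rose by 0.65 from S to G2/M (edgeR adjusted p = 3.229e-03). Hist3h2a, an H2A gene of the small chromosome 11 cluster, went from 19.85, 16.47 and 19.73 CPM in G1 to 12.57, 11.04 and 7.978 in S and 32.31, 23.35 and 20.41 in G2/M. It fell by 0.85 ± 0.15 (edgeR adjusted p = 7.861e-04) and then rose by 1.24 (edgeR adjusted p = 1.303e-05). Its fall was not called when the clustering was finer. Without Hist1h2bc the summed level in S was 3.51, 4.01 and 2.97 times that in G1. The H2B family sum, in which Hist1h2bc is the highest gene, was lower in S than in G1 although 11 other H2B genes rose.

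From S to G2/M, 35 of the 54 members rose, against 11.1% of all genes, and 0 fell, against 12.7%. The DESeq2 fit also called 27 higher and 0 lower, and at an unadjusted p under 0.05 edgeR gave 42 of 54 members (77.8%), against 35.7% of all genes. The median was 0.66 over the members and 0.01 over all genes. Risen were 2 of 5 H1, 10 of 14 H2A, 12 of 15 H2B, 7 of 9 H3 and 4 of 11 H4 genes. Hist1h4d rose to 576.7, 619.6 and 666.6 CPM (log2 fold change 0.96, edgeR adjusted p = 1.524e-08), Hist1h2ab to 167.5, 184.4 and 177.1 CPM (1.03, edgeR adjusted p = 6.197e-06) and Hist1h3c to 114.4, 144 and 123.7 CPM (1.07, edgeR adjusted p = 8.721e-06). Hist1h1b was at 716.4, 660.2 and 783 CPM in G2/M, above its S value in each library, but was not called (0.45, edgeR adjusted p = 0.0926). Hist1h1a (-0.14, edgeR adjusted p = 0.391) and Hist1h3a (-0.02, edgeR adjusted p = 0.915) were not called either.

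The genes that process, transcribe and assemble histones were compared over the same phases. Some of them had served to assign the phases, so their pattern is fixed by the calls: Slbp, Casp8ap2 and Ccne2 in the processing and transcription list, Nasp, Chaf1b and Hjurp among the chaperones, and Cenpa among the replication-independent histones. They are left out of the counts here. Of the 13 other tested processing and transcription genes, 8 were higher in S than in G1 (12.9% of all genes) and 0 lower, and from S to G2/M 9 were lower (12.7%) and 0 higher. Npat, the coactivator, averaged 12.2 CPM in G1, 22.9 in S and 13.4 in G2/M. Of the 12 other histone chaperone genes, 10 were higher in S, and 9 were lower in G2/M than in S. Among these, with means in G1, S and G2/M, were Hat1 (60.3, 142.4 and 64.9 CPM), Chaf1a (15.2, 44.2 and 20.1) and Asf1b (10.3, 54.1 and 39.2). None of the 54 tested members, which the calls did not use, was called lower in G2/M than in S. Over G1, S and G2/M Ccne1 averaged 10.3, 42.0 and 6.85 CPM and E2f1 12.2, 38.8 and 5.85. The part of the boundary between the S and G2/M calls in these differences was not tested. Of the 9 other replication-independent histone genes, 4 rose into S and 0 fell, with a median log2 fold change of 0.10, and 5 rose and 1 fell into G2/M. Over G1, S and G2/M H2afz averaged 1216, 1588 and 2117 CPM and H2afx 59.8, 116.7 and 355.7.

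Slbp, which encodes the stem-loop binding protein, is given as a description because it is one of the genes that define S here. It was at 89.09, 90.16 and 96.05 CPM in G1, 185.4, 206.3 and 176.7 in S and 80.02, 76.29 and 83.32 in G2/M.

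Across cell classes the summed level was highest in TA-like cells, at 4257, 4348 and 4521 CPM, and 4.32 ± 0.177 times that of ISC-like cells, at 966.8, 978.2 and 1098. TA-like cells were named from proliferation markers, so this difference is given as a description. Goblet-like cells were at 1560, 1827 and 1337 CPM, enteroendocrine-like cells at 1027, 1324 and 1221, tuft-like cells at 1075, 1063 and 1190, and enterocyte-like cells at 567.1, 534.6 and 496. ISC-, enteroendocrine- and tuft-like cells overlap in their ranges. Paneth-like cells, only 34, 17 and 29 cells, were lowest at 265.1, 115.2 and 339.7 CPM. The 2 clusters that could not be named were at 632.5 to 703.4 and at 459.7 to 630 CPM.

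**Figure D3:**
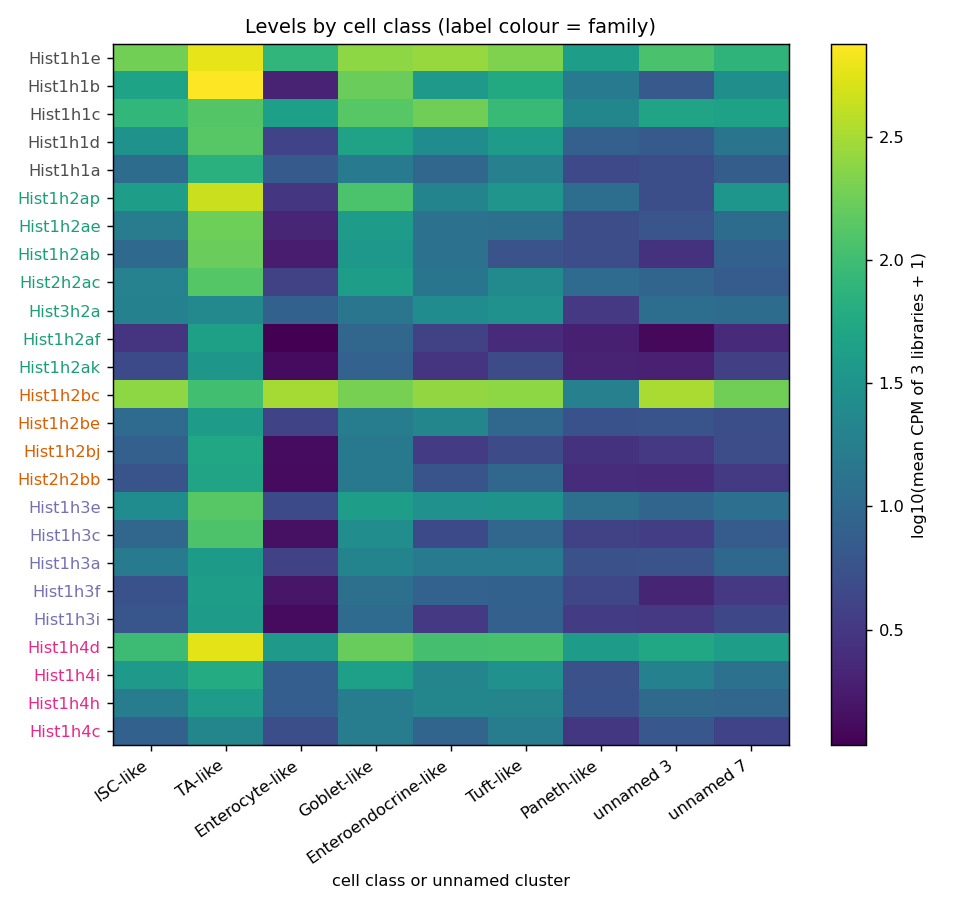
Mean CPM of 3 libraries, as log10(CPM + 1), for the 25 highest clustered histone genes in 7 named cell classes and 2 unnamed clusters. Most rows are brightest in TA-like cells, whereas Hist1h2bc is at 308 CPM in enterocyte-like and 103.8 CPM in TA-like cells.

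Most members followed the total. Hist1h1b averaged 753.7 CPM in TA-like, 169.1 in goblet-like, 47.4 in ISC-like and 1.03 in enterocyte-like cells. The goblet-like value spread widely, at 160.3, 240.5 and 106.5 CPM. Whether the goblet-like class includes dividing progenitors was not tested. Hist1h2bc went the other way, with 308 CPM in enterocyte-like, 261.3 in enteroendocrine-like, 249.6 in tuft-like, 247.1 in ISC-like, 193.3 in goblet-like, 103.8 in TA-like and 17.8 in Paneth-like cells. Its TA-like values of 126.4, 91.64 and 93.4 CPM lie below every ISC-like value (261.9, 227.8 and 251.4). Hist1h1c had its highest mean in enteroendocrine-like cells, at 154.5, 202.7 and 183.3 CPM, before goblet-like cells at 155.6, 125.4 and 125.1 and TA-like cells at 142, 122.3 and 119.5. In Arid3a cKO 1 the goblet-like value was the higher one.

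In enterocyte-like against ISC- and TA-like cells, 58 members were tested. Of these, 55 were lower, against 43.6% of 13505 genes (edgeR quasi-likelihood test, library as a block), 1 was higher, against 40.0%, and 2 were not called. The median log2 fold change was -3.90 over the members and -0.09 over all genes with TMM factors. TA-like cells, part of the reference group, were named from proliferation markers, so a fall of replication genes is partly set by the naming. The falls are therefore given as a description. Of the genes that assigned the phases, 43 of 43 in the S list were lower (median -4.50). In the G2/M list 51 of 52 were lower (median -6). With scaling by total UMIs the median of all genes moved to -0.64 and the calls over all genes from 5402 higher and 5891 lower to 3498 and 8050, while 1 member stayed higher and 56 were lower.

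Hist1h1b fell from 359.3, 410.2 and 443.7 CPM to 0.983, 1.26 and 0.843 (log2 fold change -8.06 ± 0.11, edgeR adjusted p = 4.215e-13). The pair of groups is far apart in every library. Hist1h2an had the most negative fitted value, -8.44, but rests on 2 UMIs in enterocyte-like cells: its ratio of CPM was 0.0017, with a 95% interval of 0.000205 to 0.00614. Hist1h2af (-7.67, 5 UMIs), Hist1h3b (-7.45, 4 UMIs) and Hist1h3c (-6.68, 29 UMIs) were next. The falls were smaller in Hist1h4d (-2.72, to 33.7, 34.76 and 37.56 CPM), Hist1h1e (-1.78, to 97.19, 81.06 and 59.9) and Hist1h1c (-0.76, to 49.47, 42.32 and 35.64). Summed by family, enterocyte-like cells kept 0.0328 of the ISC- and TA-like level for H2A, 0.0388 for H3, 0.121 for H4, 0.129 for H1 and 0.917 for H2B.

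Hist1h2bc was the 1 member that rose, from 198.2, 153.8 and 171.7 CPM to 314.6, 311 and 298.5 (log2 fold change 1.37 ± 0.07, edgeR adjusted p = 3.454e-09). Its log2 ratio of CPM, without TMM factors, was 0.67, 1.02 and 0.80 in the 3 libraries. The groups do not overlap. Hist1h2bc alone thus made up most of the 532.6 CPM of all members in enterocyte-like cells. Hist2h2aa1 (0.05, edgeR adjusted p = 0.797, 4.73, 3.98 and 3.42 CPM against 5.15, 5.18 and 6.93) and Hist2h3c2 (0.54, edgeR adjusted p = 0.11) were not called, and Hist2h2aa1 is lower with scaling by total UMIs. Among the companion lists, 15 of 16 processing and transcription genes, 14 of 15 chaperones and 10 of 11 replication-independent histones were lower in enterocyte-like cells. H2afj was called higher (0.27, edgeR adjusted p = 8.04e-04), although its CPM was 393 in enterocyte-like and 475.9 in ISC- and TA-like cells, so its direction depends on the scaling.

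**Figure D4:**
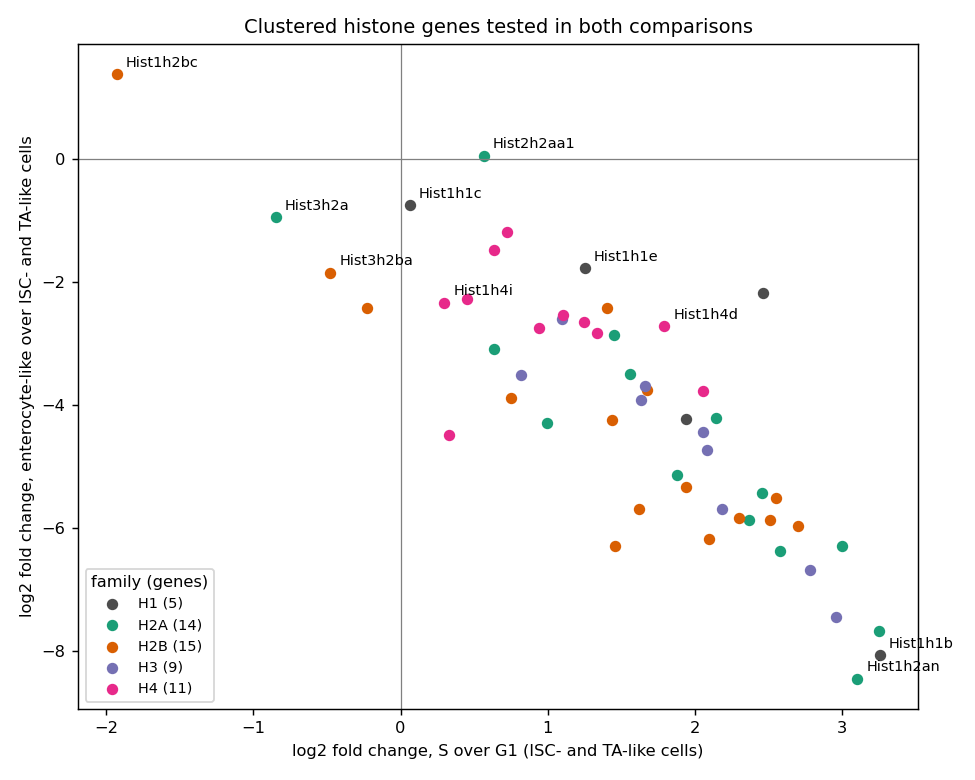
Log2 fold change in S over G1 (x axis) against log2 fold change in enterocyte-like over ISC- and TA-like cells (y axis), 1 point per clustered histone gene tested in both, coloured by family. Hist1h2bc stands alone at the upper left, at -1.93 and 1.37, and Hist1h1b at the lower right, at 3.26 and -8.06.

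Cells thinned to 21000 UMIs each, which left out 392, 276 and 429 shallower cells, show how these molecules were spread. At least 1 Hist1h2bc UMI was seen in 90.8, 88.5 and 87.6% of all cells, 98.1, 98 and 97.8% of enterocyte-like cells and 77.7, 70 and 64.7% of TA-like cells. For Hist1h1b the shares were 23.3, 25 and 27.8% of all cells, 86.5, 89.9 and 86.5% of TA-like cells and 2.07, 2.77 and 1.19% of enterocyte-like cells. The enterocyte-like share, at the same number of UMIs per cell, serves as a low reference for Hist1h1b. Whether it reflects free RNA or dividing cells within the class was not tested. Without thinning, Hist1h1b was seen in 90.9, 92.6 and 89.6% of TA-like cells (median 40886, 47897 and 38156 UMIs per cell) and 3.02, 4.19 and 2.57% of enterocyte-like cells (median 32202, 36236 and 30944). Hist1h2bc was then seen in 88.2, 86.1 and 77% of TA-like and 97.9, 97.5 and 97% of enterocyte-like cells. The tenth of cells with the most UMIs of a gene held 27.1, 29 and 28.4% of Hist1h2bc, 44.5, 45.7 and 49.9% of Hist1h1e, 62.6, 62.3 and 62.9% of Hist1h4d and 90.8, 84.6 and 83.8% of Hist1h1b. These 4 highest genes thus ran from widely spread to concentrated in few cells. A median TA-like cell held 91, 93 and 98.5 UMIs of all members together, a median ISC-like cell 18, 17.5 and 21, and a median enterocyte-like cell 11, 11 and 10.

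Upstream of the start site, RefSeq promoter windows (GRCm38.p6, 250 bases before to 50 after the start) were matched for 61 members. They were searched on both strands for 3 words known from histone promoters, and words that overlap were each counted. The TATA word TATAAA was in 57.4% of the members against 14.2% of 27025 promoters. The word CCAAT was in 85.2% against 37.9%, and the octamer ATTTGCAT in 21.3% against 1.75%. The motifs were split by family. CCAAT stood in 6 of 6 H1, 17 of 17 H2A, 16 of 16 H2B, 10 of 10 H3 and only 3 of 12 H4 windows, and the octamer in 7 H2A and 6 H2B windows and in none of H1, H3 or H4. Some H2A and H2B genes lie head to head, as Hist1h2bf (minus strand, annotated up to 23574196) and Hist1h2ad (plus strand, annotated from 23574381). Windows of such pairs can overlap, so 1 site may be counted for both genes. The shares and counts are therefore not of independent promoters. The windows of 3 genes are shown because they were among the strongest rises into S or show an H4 window: Hist1h1b (chr13:21780576-21780875, minus strand), Hist1h2ab (chr13:23750838-23751137, plus strand) and Hist1h4d (chr13:23581318-23581617, plus strand). Capitals mark the motifs, which are matches of letters and not shown to be bound.
Hist1h1b: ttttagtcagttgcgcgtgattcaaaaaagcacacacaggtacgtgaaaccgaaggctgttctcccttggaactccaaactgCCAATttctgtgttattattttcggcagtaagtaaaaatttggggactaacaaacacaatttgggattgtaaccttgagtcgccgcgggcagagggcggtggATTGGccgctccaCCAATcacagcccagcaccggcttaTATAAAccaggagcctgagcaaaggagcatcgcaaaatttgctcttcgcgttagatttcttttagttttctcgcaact
Hist1h2ab: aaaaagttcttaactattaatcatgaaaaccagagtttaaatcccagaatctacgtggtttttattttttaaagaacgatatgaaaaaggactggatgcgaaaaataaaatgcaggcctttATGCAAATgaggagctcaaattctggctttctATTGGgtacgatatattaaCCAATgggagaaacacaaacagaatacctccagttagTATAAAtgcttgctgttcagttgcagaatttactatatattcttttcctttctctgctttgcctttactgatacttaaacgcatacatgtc
Hist1h4d: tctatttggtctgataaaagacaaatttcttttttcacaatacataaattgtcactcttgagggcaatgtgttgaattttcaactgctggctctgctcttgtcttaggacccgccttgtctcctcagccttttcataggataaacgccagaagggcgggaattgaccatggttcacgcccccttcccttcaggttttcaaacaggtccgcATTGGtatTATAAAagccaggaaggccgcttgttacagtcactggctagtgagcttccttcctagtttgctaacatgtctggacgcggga

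The study compared Arid3a cKO with WT. With 1 WT library there is no test of genotype, and members were instead sorted by a rule of size. Among members averaging 20 CPM or more, one counted as separated if both cKO libraries lay on the same side of WT by a log2 ratio of CPM + 5 of 1 or more. In all kept cells the summed level differed from WT by -0.14 (Arid3a cKO 1) and 0.01 (Arid3a cKO 2) on the log2 scale. In ISC- and TA-like cells, at 2513, 2809 and 2825 CPM, it differed by -0.17 and -0.01. By phase the differences were -0.30 and -0.14 in G1, -0.19 and 0.25 in S and -0.08 and -0.12 in G2/M, so both cKO libraries lay below WT in G1 and G2/M and on either side of it in S. In both all kept cells and ISC- and TA-like cells Arid3a cKO 2 was closer to WT than to Arid3a cKO 1.

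**Figure D5:**
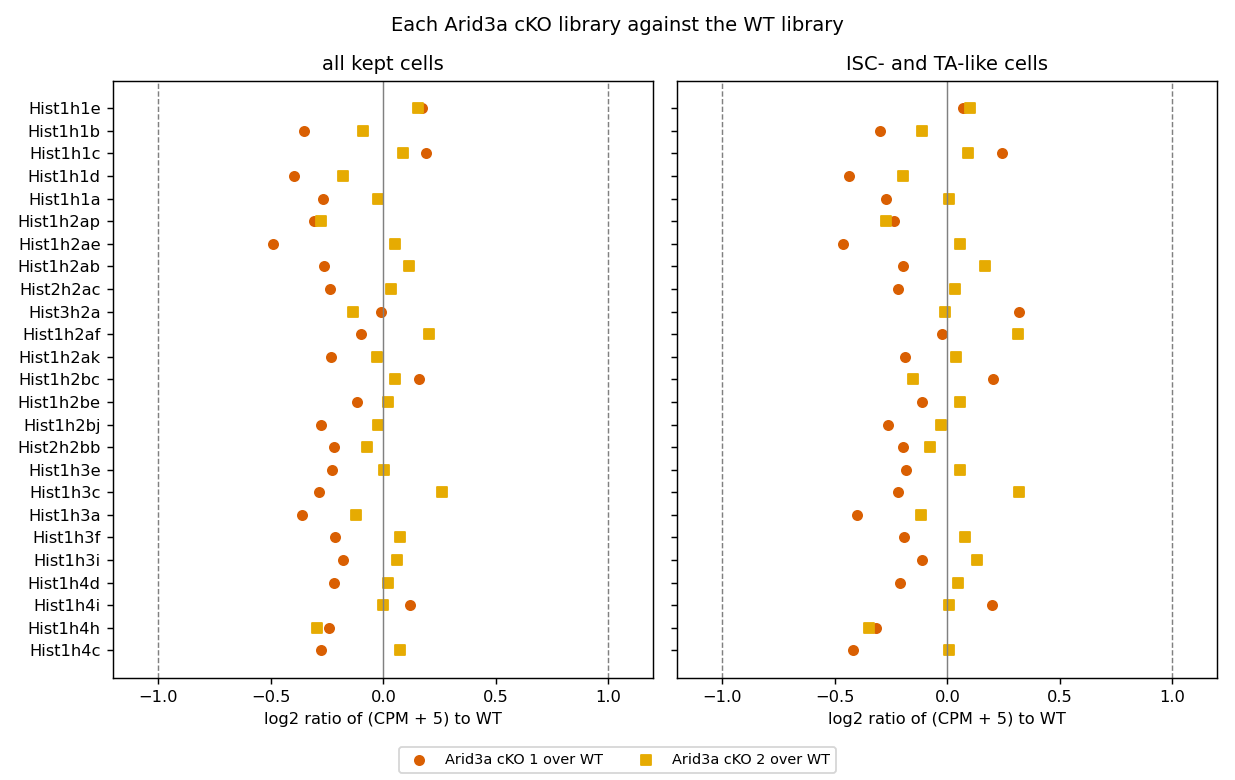
Log2 ratio of CPM + 5 to the WT library for the 25 highest clustered histone genes, in all kept cells (left) and in ISC- and TA-like cells (right), 1 point per Arid3a cKO library; dashed lines mark a log2 ratio of 1 in either direction. Every point lies inside the dashed lines, from -0.491 (Hist1h2ae, Arid3a cKO 1, all cells) to 0.318 (Hist3h2a, Arid3a cKO 1, ISC- and TA-like cells).

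Of the 13 members past 20 CPM in all kept cells, 0 were separated, against 0.356% of 5336 genes. WT lay above both cKO libraries for 3 of them (32.8% of all genes), below both for 3 (43.0%) and between them for 7. Their median log2 ratio to WT was -0.237 in Arid3a cKO 1 and 0.0339 in Arid3a cKO 2. In ISC- and TA-like cells 23 members were past 20 CPM and 0 were separated, against 0.196% of 5599 genes. WT was above both for 7 (29.5%), below both for 3 (38.5%) and between for 13. The edgeR fit of 2 cKO libraries against 1 WT library, which assumes that WT varies like the cKO libraries, called 0 of 62 members in all cells, against 0.696% of 16670 genes, and 0 in ISC- and TA-like cells, against 0.408% of 14474. At an unadjusted p under 0.05 it gave 5 members in all cells (8.06%, against 11% of all genes) and 4 in ISC- and TA-like cells (6.45%, against 6.63%).

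Hist1h1d was lower in both cKO libraries, at 30.15 and 35.91 CPM against 41.34 in WT. Hist1h2ap was lower too, at 88.36 and 90.6 against 110.7. Hist1h1e and Hist1h1c were higher in both cKO libraries in all cells. By class, the sum of all members was lower than WT in both cKO libraries in ISC-like (log2 ratios -0.18 and -0.17), TA-like (-0.09 and -0.06), tuft-like (-0.15 and -0.16) and Paneth-like cells (-0.35 and -1.52). It was higher in both in enterocyte-like (0.19 and 0.11) and goblet-like cells (0.22 and 0.45) and of opposite sign in enteroendocrine-like cells (-0.25 and 0.12). In enterocyte-like cells the 6 H1 genes summed to 157.1 and 133.8 CPM in the cKO libraries and 104.4 in WT. Within the same cells the ISC markers summed to 43.1 and 32 CPM against 27.4, and the TA markers to 160 and 131 against 123, and their part in the H1 difference was not tested.

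Within the G1 cells, a comparison added after the phase values were seen, 1 of 11 members past 20 CPM was separated, against 0.256% of 5459 genes. WT lay above both cKO libraries for 5 of the 11 (35.5% of all genes) and below both for 3 (33.0%). Hist1h1b was at 28.85 and 45.58 CPM in the cKO libraries and 97.42 in WT, log2 ratios of -1.60 and -1.02. Hist1h2ap followed, at 27 and 43.02 CPM against 74.79 (-1.32 and -0.73), and the H2A genes summed to 95.1 and 141.4 CPM against 196.7. The call of Hist1h1b lies at the edge of the rule and was absent with a finer clustering, with wider cell limits and with phases from unthinned cells. WT also had fewer cells in G1, 32.1% against 43 and 41.1%, and more in S, 29.6% (95% exact binomial interval 25.5 to 33.9) against 20.7% (17.3 to 24.4) and 23.9% (19.9 to 28.2). These intervals cover the sampling of cells within a library only. They hold no spread between libraries or animals and are no test of genotype. The part of the phase boundaries in the G1 values was not tested. In S 0 of 24 and in G2/M 0 of 30 members were separated, against 0.252 and 0.194% of all genes. WT lay above both cKO libraries for 18 of the 30 in G2/M (27.1% of all genes) and below both for 5 (40.4%). In S it lay above both for 3 of the 24 (25.8%) and below both for 3 (42.7%).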

How the data were processed

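UMI counts per gene and barcode were deposited by the authors as 10x matrices, made with Cell Ranger. The reference genome used for counting is not given in the sources used here, and the builds named in the submitters' processing notes are human. The members and gene lists were chosen with earlier results of these data known. Cells with at least 1000 genes and at most 15% mitochondrial UMIs, the study's limits, were kept (5594 of 25554 barcodes), clustered with Seurat 5.3.0 at resolution 0.3 without the members, and named from fixed markers. Scrublet marked 1.41 to 2.41% of cells as doublets, which were kept. UMIs were summed per library and phase, or library and class, and tested with edgeR 4.0.16 in R 4.3.3 (TMM, filterByExpr, library as a block, p-values adjusted over all genes); the script was tested on simulated data. CPM is UMIs per 1000000 UMIs of the same cells. Phases came from cells thinned to 24000 UMIs, which left out 158, 53 and 142 cells of the libraries in order. Alternatives were DESeq2 1.42.0, no block, no filter, other scaling, other cell limits, finer clustering, no doublets and each library left out. Named were the 25 members with the highest mean CPM, up to 5 called members per direction with the largest change, separated members and fixed companion lists; other members named beside them were chosen after their values were seen.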

Additional observations from a re-analysis of the deposited data

Results flagged for a closer look

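Barcodes outside the cell limits, which no comparison uses, also held clustered histone UMIs. The members made up 449 CPM in the 4711 such barcodes of Arid3a cKO 1 and 342 CPM in the 5343 of Arid3a cKO 2, above the 283 CPM in the 9906 of WT. The kept cells of the same libraries were at 1303, 1439 and 1432 CPM. What these barcodes hold was not tested.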

How the results depend on the processing

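Under the other settings tried 1 member (Hist1h2bc) was higher in enterocyte-like cells each time and 55 to 59 were lower, 36 to 46 members were higher in S than in G1, and 0 were separated between cKO and WT in all kept cells or in ISC- and TA-like cells. With clustering at resolution 0.8, 1 member in place of 2 was lower in S. Without the library block, 23 members in place of 35 were higher in G2/M than in S and 39 in place of 44 higher in S. Leaving out 1 library gave 36 to 43 members higher in S and 30 to 38 higher in G2/M. The 1 member separated in G1 became 0 with at least 500 genes and at most 25% mitochondrial UMIs, 0 at resolution 0.8, 0 with unthinned phases and 2 with a log2 ratio of 0.5, and leaving out a cKO library gave 1 (without Arid3a cKO 1) to 2 (without Arid3a cKO 2). The cause of these moves was not tested. Over all genes, S against G1 gave 1538 higher and 1322 lower in the fit used, 945 and 600 with DESeq2, 1013 and 598 without the block and 871 and 572 without Arid3a cKO 1, 1250 and 830 without WT and 1201 and 738 at resolution 0.8. For G2/M against S the counts were 1326 and 1507 in the fit used, 665 and 759 with DESeq2, 632 and 759 without the block and 708 and 683 without Arid3a cKO 1. Enterocyte-like cells gave 5402 higher and 5891 lower genes with TMM and 3498 and 8050 with total UMIs. No paired analysis was possible because the labels tie no cKO library to the WT library, and the numbers only name libraries. The single WT library and, for the 38 members under 5 CPM, the few UMIs limit what could be detected.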
